A study of Mus musculus with 14 samples.

Results

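Cyclic nucleotide phosphodiesterases (PDEs) are the enzymes that break down cAMP and cGMP, and 10 of their genes were followed here in the left ventricle of the mouse: Pde11a, Pde1a, Pde1c, Pde2a, Pde3a, Pde3b, Pde4a, Pde4b, Pde4d and Pde7a. They were taken from a table of 24054 genes by their symbols, and all 10 were among the 13588 genes with enough counts to be tested. The set was chosen from fold changes of these same libraries, with the results of all comparisons in view, and Pde11a heads it because of its large difference between HFpEF-scr and Control. The values of the 10 genes are therefore given as a description, with no p. Pde5a and Pde9a were not part of the set.

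Messenger RNA was sequenced in 14 libraries of C56Bl6 mice in 3 groups. HFpEF-FoxO1-sh (n = 5) and HFpEF-scr (n = 4) came from mice given fat-rich food and L-NAME, which inhibits nitric oxide synthases, for 6 weeks, a regimen that models HFpEF, heart failure in which the ejection fraction is preserved. The same animals also carried, for 4 weeks, an adeno-associated virus (AAV) with a short hairpin RNA, aimed at FoxO1 in HFpEF-FoxO1-sh and scrambled in HFpEF-scr. Control libraries (n = 5) came from mice on a standard diet for 10 weeks, and no AAV is named for them. Diet, its stated duration, L-NAME and virus therefore cannot be told apart in a comparison with Control. Age and sex are not given in the labels. The labels do not say which promoter the virus carries, which cells it reaches or whether each replicate is an animal of its own, and every p therefore reflects how far these libraries spread.

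cAMP drives contraction and relaxation of heart muscle through protein kinase A, and cGMP acts mostly through protein kinase G. Each PDE family clears these messengers in its own way, and many are anchored beside particular receptors, channels or pumps, so that local pools of cAMP and cGMP are kept apart. PDE1 enzymes are switched on by calcium and calmodulin and cut both messengers, PDE2 cuts both and is stimulated by cGMP, PDE3 cuts cAMP and is slowed by cGMP, PDE4 and PDE7 are specific for cAMP, and PDE11 cuts both.

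Totals were 13.64 to 15.38 M (units of 1000000 counts) in HFpEF-FoxO1-sh, 14.03 to 15.38 M in HFpEF-scr and 13.17 to 21.25 M in Control. The libraries labelled HFpEF-FoxO1-sh did not hold less Foxo1 mRNA. Foxo1 averaged 42.4 ± 2.56 CPM (counts per 1000000) in HFpEF-FoxO1-sh and 43.5 ± 3.74 CPM in HFpEF-scr (SD, n = 5 and 4), a log2 fold change of -0.04 ± 0.06 (SE) with an adjusted p of 0.78 by edgeR's quasi-likelihood test. The group is therefore named by its label throughout. Markers of heart muscle were high in every library, with 10 genes summing to at least 96560 CPM. Summed immediate early genes reached 5152 CPM in HFpEF-scr 2 and 3705 CPM in HFpEF-scr 1, and summed red cell genes 6024 CPM in HFpEF-scr 1, so these 2 libraries stood apart from the rest of HFpEF-scr. In Control 5 the immediate early sum was 3465 CPM, close to that of HFpEF-scr 1. The 3 comparisons share libraries, and each is given on its own.

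The stretches of DNA just before a start of Pde11a and before a start of Pde1c are shown here because these genes differed most between the HFpEF groups and Control, in opposite directions. Both are RefSeq windows of 250 bases on GRCm38.p6, written 5′ to 3′ on the minus strand, at chr2:76338939-76339188 for Pde11a and at chr6:56369635-56369884 for Pde1c. Capitals mark the only match found in them to a searched motif.
Pde11a: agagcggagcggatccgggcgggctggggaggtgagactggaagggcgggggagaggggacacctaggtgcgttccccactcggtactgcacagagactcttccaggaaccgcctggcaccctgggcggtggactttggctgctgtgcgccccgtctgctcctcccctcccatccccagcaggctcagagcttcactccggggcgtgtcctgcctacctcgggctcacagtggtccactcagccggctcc
Pde1c: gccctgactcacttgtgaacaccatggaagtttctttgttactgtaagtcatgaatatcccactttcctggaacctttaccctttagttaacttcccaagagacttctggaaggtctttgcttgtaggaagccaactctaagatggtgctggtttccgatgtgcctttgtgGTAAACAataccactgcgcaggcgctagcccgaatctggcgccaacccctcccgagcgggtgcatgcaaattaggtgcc
The motifs searched on both strands were GTAAACA, a core bound by forkhead factors, TGACGTCA, the full cAMP response element, and TGACG, the short form of that element, which also lies within the full one. GTAAACA lay 79 bases before the Pde1c start shown. It was found in neither of the other 2 Pde1c windows. The window shown was the only 1 with GTAAACA among the 21 windows of the PDE genes, against 3.17% of all 32851 RefSeq windows of this length. The Pde11a window held none of the motifs and had 68.4% G and C. Of the 21 windows of the 7 PDE genes with an entry, none held TGACGTCA, against 1.55% of all windows, and 3 held TGACG, against 17.8% of all windows. These 3 belonged to Pde1a, Pde4a and Pde4b. A match is a run of letters and not a site of binding, and RefSeq windows were matched for Pde11a, Pde1a, Pde1c, Pde2a, Pde4a, Pde4b and Pde4d.

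Across the whole table, edgeR called 3.66% of genes up and 3.7% down in HFpEF-scr against Control at an adjusted p under 0.05, and 6.68% up and 6.28% down in HFpEF-FoxO1-sh against Control. It called 1.32% up and 2.26% down in HFpEF-FoxO1-sh against HFpEF-scr. Of the 10 PDE genes, Pde11a passed the call upward and Pde1c downward in HFpEF-scr against Control. Pde11a and Pde7a passed it upward and Pde1c downward in HFpEF-FoxO1-sh against Control. Between HFpEF-FoxO1-sh and HFpEF-scr the number was 0 by edgeR, DESeq2 and limma voom alike, and 1 gene, Pde3a, had an unadjusted p under 0.05 in edgeR. Since the set was chosen with these contrasts known, nothing is read from those counts. The median log2 fold change of the 10 genes was 0.09, 0.06 and -0.09 in HFpEF-scr against Control, HFpEF-FoxO1-sh against Control and HFpEF-FoxO1-sh against HFpEF-scr, and that of all genes tested was 0.002, -0.003 and 0.004.

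**Figure D1:**
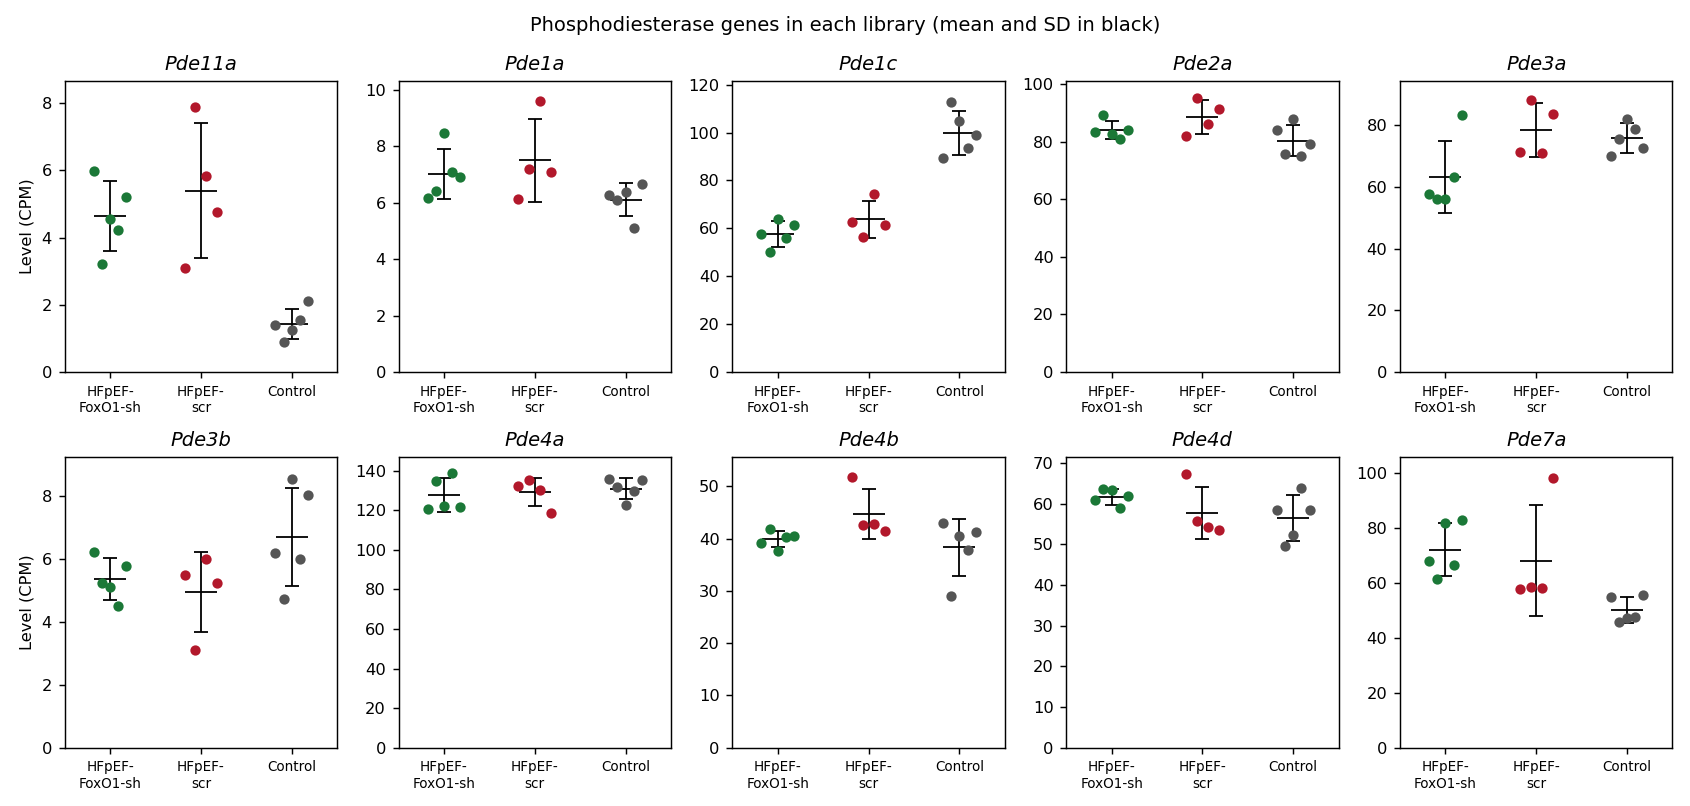
Level of each PDE gene in CPM (vertical axes from 0) in every library of HFpEF-FoxO1-sh, HFpEF-scr and Control, with the group mean and SD in black. Pde11a and Pde7a lie higher, and Pde1c lower, in all libraries of both HFpEF groups than in any Control library.

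Pde11a, which encodes the dual-specificity PDE11A, lies on chromosome 2 at 75989141 to 76338774 of GRCm38, minus strand. Its level was 5.98, 3.21, 4.55, 4.22 and 5.2 CPM in HFpEF-FoxO1-sh 1 to 5, 3.1, 7.9, 5.83 and 4.75 CPM in HFpEF-scr 1 to 4, and 1.41, 0.89, 1.24, 1.55 and 2.11 CPM in Control 1 to 5. Every library of both HFpEF groups lay above the highest Control library, and the HFpEF groups overlapped each other. The fold was 3.73 in HFpEF-scr against Control, a log2 fold change of 1.90 ± 0.27 (SE), and 3.21 in HFpEF-FoxO1-sh against Control, a log2 fold change of 1.68 ± 0.26. Between HFpEF-FoxO1-sh and HFpEF-scr the log2 fold change was -0.22 ± 0.24, less than its error, and it ran from -0.40 without HFpEF-scr 1 to 0.02 without HFpEF-scr 2. Without HFpEF-scr 1 and 2 together, the value in HFpEF-scr against Control was 1.87 for Pde11a. These levels rest on few reads, with 43 to 90 counts per library in HFpEF-FoxO1-sh, 44 to 114 in HFpEF-scr and 12 to 31 in Control.

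Non-overlap with Control was not rare in the table. Groups did not overlap for 4.29% of genes upward and 4.64% downward in HFpEF-scr against Control, and for 6.62% upward and 5.53% downward in HFpEF-FoxO1-sh against Control. Between HFpEF-FoxO1-sh and HFpEF-scr the shares were 4.11% upward and 4.23% downward, and none of the 10 PDE genes was among them. In a piece of ventricle, fewer cells of a type and less RNA per cell cannot be told apart. Of the markers of other cell types, the summed adipocyte list separated the groups in the way Pde11a did, at 44.84 to 50.26 CPM in HFpEF-FoxO1-sh, 45.52 to 49.05 CPM in HFpEF-scr and 24.56 to 31.66 CPM in Control. That sum was Cidea alone, the single gene of its 8 with enough counts to be tested, so it describes 1 gene and not the list. Adipoq, the hormone of fat cells, had between 0 and 5 counts per library, and Retn had 0 in every library.

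Pde1c, the calmodulin-activated PDE with high affinity for both messengers, lies on chromosome 6 at 56069804 to 56569103, minus strand. It stood at 57.5, 50.04, 64.1, 56.0 and 61.4 CPM in HFpEF-FoxO1-sh 1 to 5, at 62.8, 56.3, 74.4 and 61.5 CPM in HFpEF-scr 1 to 4, and at 89.3, 113, 105, 93.6 and 98.8 CPM in Control 1 to 5. All HFpEF libraries were below the lowest Control library, and the HFpEF groups overlapped. Pde1c had a log2 fold change of -0.65 ± 0.09 in HFpEF-scr against Control and -0.79 ± 0.08 in HFpEF-FoxO1-sh against Control, and it was -0.14 ± 0.09 between HFpEF-FoxO1-sh and HFpEF-scr. Without HFpEF-scr 1 and 2 together, the value in HFpEF-scr against Control was -0.55. Counts behind Pde1c were ample, at 670 to 929, 813 to 1162 and 1389 to 1905 per library in HFpEF-FoxO1-sh, HFpEF-scr and Control.

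Summed heart muscle markers lay lower in HFpEF-scr than in Control, while HFpEF-FoxO1-sh overlapped both. Their 10 genes summed to 101000 to 111700 CPM in HFpEF-FoxO1-sh, 96560 to 107700 CPM in HFpEF-scr and 108900 to 116600 CPM in Control, and 4 of the 10 were called down in HFpEF-scr against Control. Their median log2 fold change was -0.15 in HFpEF-scr against Control and -0.08 in HFpEF-FoxO1-sh against Control. Their part in the lower Pde1c was not tested.

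Pde1a, its close relative, which prefers cGMP, lies on chromosome 2 at 79834453 to 80129458, minus strand. Its level was 6.17 to 8.49 CPM in HFpEF-FoxO1-sh, 6.12 to 9.6 CPM in HFpEF-scr and 5.12 to 6.68 CPM in Control. The groups overlapped in every comparison, with log2 fold changes of 0.30 ± 0.13 in HFpEF-scr against Control, 0.20 ± 0.13 in HFpEF-FoxO1-sh against Control and -0.10 ± 0.13 between the HFpEF groups. Pde1a did not share the lower level of Pde1c. Its counts were not whole numbers in any of the 14 libraries, which shows that the authors' counting divided some of its reads with other loci.

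Pde7a, a cAMP-specific enzyme, lies on chromosome 3 at 19223108 to 19311322, minus strand. It stood at 68.1, 61.4, 82.0, 66.5 and 82.8 CPM in HFpEF-FoxO1-sh 1 to 5, at 57.6, 58.3, 58.1 and 98.2 CPM in HFpEF-scr 1 to 4, and at 55.0, 45.6, 47.2, 47.4 and 55.7 CPM in Control 1 to 5. The 5 HFpEF-FoxO1-sh libraries and the 4 HFpEF-scr libraries lay above Control, but 3 of HFpEF-scr did so narrowly and HFpEF-scr 4 by far. In log2 terms Pde7a differed by 0.52 ± 0.14 in HFpEF-FoxO1-sh against Control. In HFpEF-scr against Control it was 0.44 ± 0.14, and it ranged from 0.21 without HFpEF-scr 4 to 0.63 without HFpEF-scr 1 and 2 together. Between HFpEF-FoxO1-sh and HFpEF-scr it was 0.08 ± 0.14, and 0.31 without HFpEF-scr 4. Counts of Pde7a were not whole in 12 of 14 libraries.

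**Figure D2:**
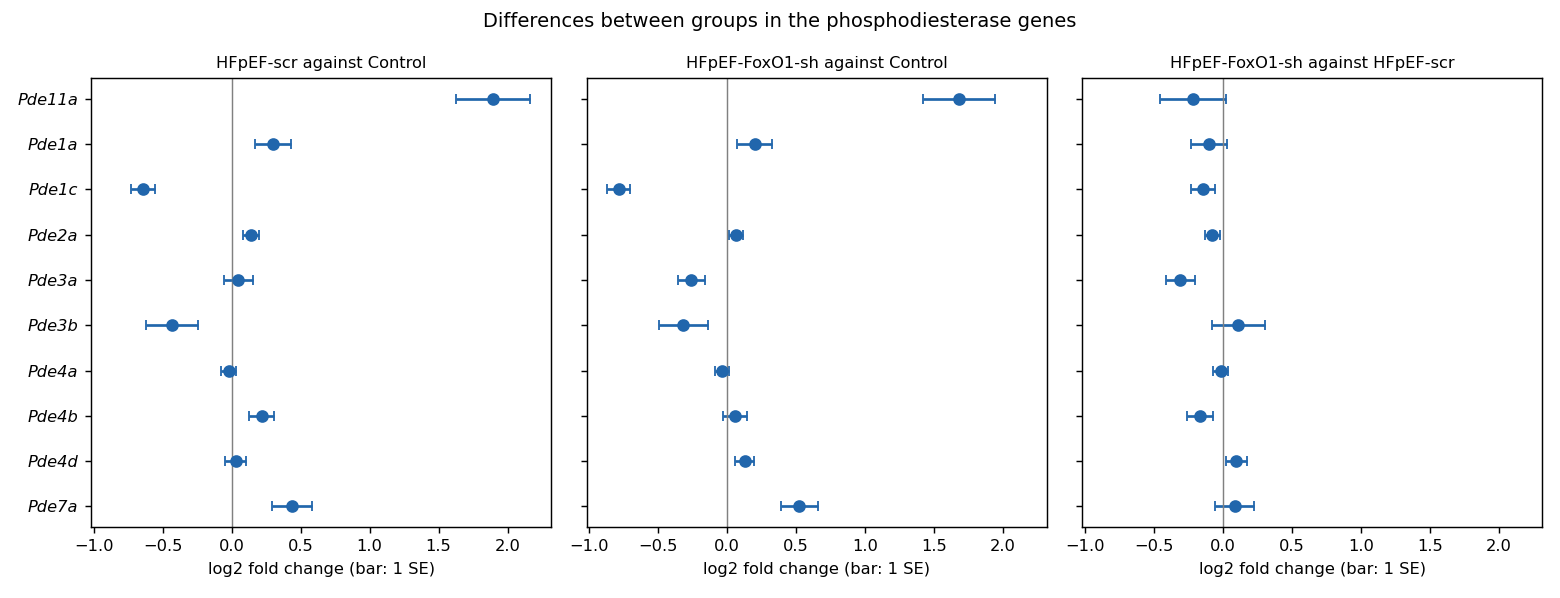
Log2 fold change of each PDE gene (horizontal axis, bars of 1 SE) in HFpEF-scr against Control, HFpEF-FoxO1-sh against Control and HFpEF-FoxO1-sh against HFpEF-scr. Pde11a stands far to the right and Pde1c to the left in both comparisons with Control, and in the third panel the values lie between -0.31 and 0.11.

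Pde3a and Pde3b encode the cGMP-inhibited PDEs, of which PDE3A is the form that works beside the calcium pump of the sarcoplasmic reticulum. Pde3a lies on chromosome 6 at 141249269 to 141507448, plus strand. It had 57.7, 56.0, 56.2, 63.1 and 83.3 CPM in HFpEF-FoxO1-sh 1 to 5, 71.3, 88.0, 70.9 and 83.5 CPM in HFpEF-scr 1 to 4, and 70.0, 75.5, 82.1, 78.9 and 72.7 CPM in Control 1 to 5. Thus 4 of 5 HFpEF-FoxO1-sh libraries lay below all libraries of both other groups, and HFpEF-FoxO1-sh 5 lay above every Control library. It differed by a log2 fold change of -0.31 ± 0.10 against HFpEF-scr and -0.26 ± 0.10 against Control, and without HFpEF-FoxO1-sh 5 it was -0.43 and -0.38. With that library left out Pde3a passed the call in both, which it did under no other setting run. Leaving out the library that goes the other way favours a call, and the set was chosen with these contrasts known, so nothing is read from that call. In HFpEF-scr against Control the value was 0.05 ± 0.10.

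Pde3b, the form prominent in fat and liver, lies on chromosome 7 at 114415281 to 114539251, plus strand, and was low here. Its level was 4.51 to 6.24 CPM in HFpEF-FoxO1-sh, 3.12 to 6.02 CPM in HFpEF-scr and 4.75 to 8.55 CPM in Control. The groups overlapped, and the log2 fold changes of -0.43 ± 0.19 in HFpEF-scr against Control and -0.32 ± 0.17 in HFpEF-FoxO1-sh against Control had wide errors. Between the HFpEF groups the value was 0.11 ± 0.19.

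Pde2a, the cGMP-stimulated enzyme, lies on chromosome 7 at 101421691 to 101512827, plus strand, and 64.3% of its exon bases are shared on the same strand with Gm45837, a gene that the table does not list. Its level was 80.9 to 89.5 CPM in HFpEF-FoxO1-sh, 81.9 to 95.3 CPM in HFpEF-scr and 75.3 to 87.9 CPM in Control. All groups overlapped, with log2 fold changes of 0.14 ± 0.06 in HFpEF-scr against Control, 0.06 ± 0.05 in HFpEF-FoxO1-sh against Control and -0.08 ± 0.06 between the HFpEF groups.

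The PDE4 genes, whose cAMP-specific products sit at beta-adrenergic receptors and ryanodine receptors among other places, differed little. Pde4a lies on chromosome 9 at 21165714 to 21213248, plus strand, and was the steadiest of the 10 between groups, at 121 to 139 CPM in HFpEF-FoxO1-sh, 119 to 135 CPM in HFpEF-scr and 122 to 136 CPM in Control. Its log2 fold changes were -0.02, -0.04 and -0.02 in HFpEF-scr against Control, HFpEF-FoxO1-sh against Control and HFpEF-FoxO1-sh against HFpEF-scr, each ± 0.05. Pde4b lies on chromosome 4 at 102087543 to 102607259, plus strand, and Pde4d on chromosome 13 at 108449948 to 109953461, plus strand.

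Pde4b had 39.2, 41.8, 37.6, 40.3 and 40.5 CPM in HFpEF-FoxO1-sh 1 to 5, 51.9, 42.7, 42.7 and 41.5 CPM in HFpEF-scr 1 to 4, and 43.0, 29.1, 40.5, 37.9 and 41.2 CPM in Control 1 to 5. Pde4d had 60.9, 63.6, 63.3, 58.8 and 61.9 CPM in HFpEF-FoxO1-sh 1 to 5, 67.2, 55.7, 54.3 and 53.6 CPM in HFpEF-scr 1 to 4, and 58.4, 49.5, 52.3, 63.7 and 58.4 CPM in Control 1 to 5. HFpEF-scr 1 was the highest of all 14 libraries for both genes, and Control 2 the lowest for both, and the groups overlapped. Control 2 also had the lowest sum of immediate early genes, 504.6 CPM, and HFpEF-scr 1 one of the highest. Other libraries did not follow that order. HFpEF-scr 2, with the highest sum, 5152 CPM, had 42.7 CPM of Pde4b and 55.7 CPM of Pde4d. HFpEF-FoxO1-sh 1, with a low sum of 588.6 CPM, had 39.2 CPM of Pde4b and 60.9 CPM of Pde4d. For Pde4b the log2 fold change was 0.22 ± 0.09 in HFpEF-scr against Control, 0.05 ± 0.09 in HFpEF-FoxO1-sh against Control and -0.16 ± 0.09 between the HFpEF groups. For Pde4d it was 0.03 ± 0.07, 0.13 ± 0.07 and 0.10 ± 0.07 in the same comparisons. Without HFpEF-scr 1 and 2 together, the values in HFpEF-scr against Control were 0.13 for Pde4b and -0.07 for Pde4d.

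After the group means were taken off, Pde4b and Pde4d had a Pearson r of 0.67 over 14 libraries, the highest of the pairs among the 10 genes. Pde1a and Pde1c followed with 0.59, and Pde4a and Pde7a went opposite ways with -0.56. Pde4b and Pde4d were both highest in HFpEF-scr 1, at 51.9 and 67.2 CPM. Both were lowest in Control 2, at 29.1 and 49.5 CPM. How far the r of Pde4b and Pde4d rests on these libraries was not tested. The mean log2 CPM of the immediate early genes gave an r of 0.55 with Pde4b, 0.51 with Pde4d, -0.58 with Pde1c and 0.18 with Pde11a in the same measure. These values describe 14 libraries that share depth and handling within a library, and the part of the immediate early response in the PDE levels was not tested.

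Per length, the PDE genes were ordered by CPM per kilobase (kb) of exon. In Control, Pde4a led with 17.1 CPM per kb, followed by Pde2a with 13.1, Pde7a with 6.48, Pde3a with 5.95, Pde1c with 4.98, Pde4d with 4.70, Pde4b with 3.63, Pde1a with 1.02, Pde3b with 0.736 and Pde11a with 0.276 CPM per kb. Among neighbours in that order, Pde7a and Pde3a, Pde3a and Pde1c, Pde1c and Pde4d, and Pde1a and Pde3b overlapped between libraries. Pde1c was in place 7 in both HFpEF groups, with 2.88 CPM per kb in HFpEF-FoxO1-sh and 3.18 CPM per kb in HFpEF-scr, against place 5 in Control. Pde11a was in place 9 in both HFpEF groups, with 0.89 CPM per kb in HFpEF-FoxO1-sh and 1.03 CPM per kb in HFpEF-scr, above Pde3b on average and overlapping it. The middle of the order depends on the length used. With the longest transcript in place of all exons, Pde4d came to place 3, Pde1c to place 4 and Pde7a to place 6 in Control.

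**Figure D3:**
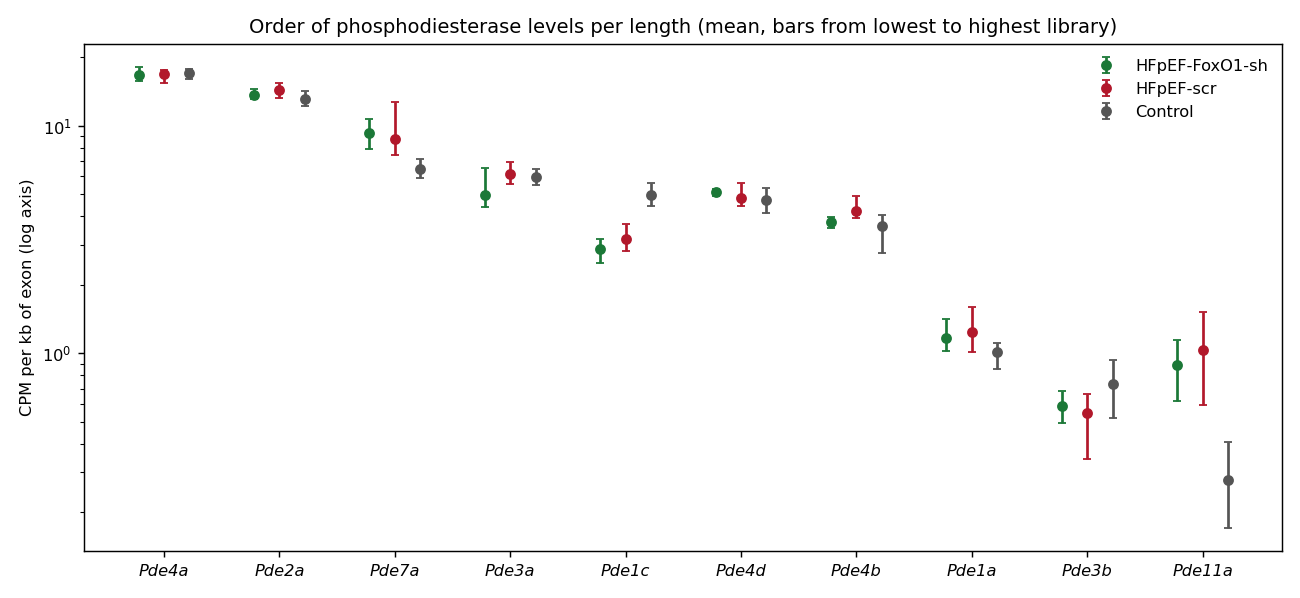
CPM per kb of exon (vertical log axis) of the 10 PDE genes in HFpEF-FoxO1-sh, HFpEF-scr and Control, as the mean with bars from the lowest to the highest library. Pde4a and Pde2a lead in every group, Pde1c drops below Pde4b in both HFpEF groups, and Pde11a is last in Control alone.

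The sum of the 10 genes differed less than its leading movers, at 59.1 ± 1.61 CPM per kb in HFpEF-FoxO1-sh, 61.3 ± 2.01 CPM per kb in HFpEF-scr and 58.0 ± 1.70 CPM per kb in Control (SD, n = 5, 4 and 5). Within that sum Pde1c held 4.88% in HFpEF-FoxO1-sh, 5.20% in HFpEF-scr and 8.60% in Control. Pde11a held 1.51%, 1.69% and 0.475% in the same groups, so that its large fold was a small part of the summed level of these 10 genes. Pde7a held 15.7%, 14.3% and 11.2%. In HFpEF-scr 4 it held 19.9%, against 12.1% to 12.6% in the rest of that group, and Control reached 12.1%. Like the order of levels, these shares depend on the length used. Counts are per gene, so they do not tell the long and short forms of PDE4 or other isoforms apart, and they say nothing of enzyme activity.

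The genes with a pattern most like that of Pde11a were sought among 11347 genes averaging 2 CPM or more, by the Pearson correlation of log2 CPM over the 14 libraries. Nek7, a mitotic kinase that also serves the inflammasome, came first with 0.968, then Tmem66, a regulator of store-operated calcium entry, with 0.952, Vwa8 with 0.940, and Me1, the cytosolic malic enzyme, with 0.935. Nek7 had 156 ± 3.66 CPM in HFpEF-FoxO1-sh, 156 ± 8.68 CPM in HFpEF-scr and 137 ± 3.30 CPM in Control, a much smaller difference than that of Pde11a. With group means taken off, Nek7 again came first with 0.847, followed by Tbc1d7 with 0.841, Ano8 with 0.837, Usp47 with 0.828 and Fggy with 0.826. The median over all genes ranked was 0.00 in both measures, and the highest values of so many genes are a description of these libraries.

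Around the PDE genes, 86 genes that make, sense, anchor or answer cyclic nucleotides were counted in 10 lists by role, of which 79 were tested. In HFpEF-scr against Control 8 rose and 6 fell, in HFpEF-FoxO1-sh against Control 9 rose and 9 fell, and in HFpEF-FoxO1-sh against HFpEF-scr 4 fell. The number that rose in that last comparison was 0 by edgeR, with 3 at an unadjusted p under 0.05, and 1 by DESeq2. Over all genes, edgeR called 3.66% up and 3.7% down, 6.68% up and 6.28% down, and 1.32% up and 2.26% down in the same order. The lists were chosen with earlier results of these data known, and whether they exceed these shares was not tested. The median log2 fold changes of the 79 genes were 0.01, -0.00 and -0.05 in that order, close to those of all genes. Rises and falls offset each other in a median. In a fit of HFpEF-scr and Control alone, Adcy1, Gucy1a1, Gucy1b1, Gnai3, Hcn2 and Prkg1 lost the call between them that is given below. Each adjusted p below is from edgeR's quasi-likelihood test, with the Benjamini-Hochberg method applied to all 13588 genes.

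**Figure D4:**
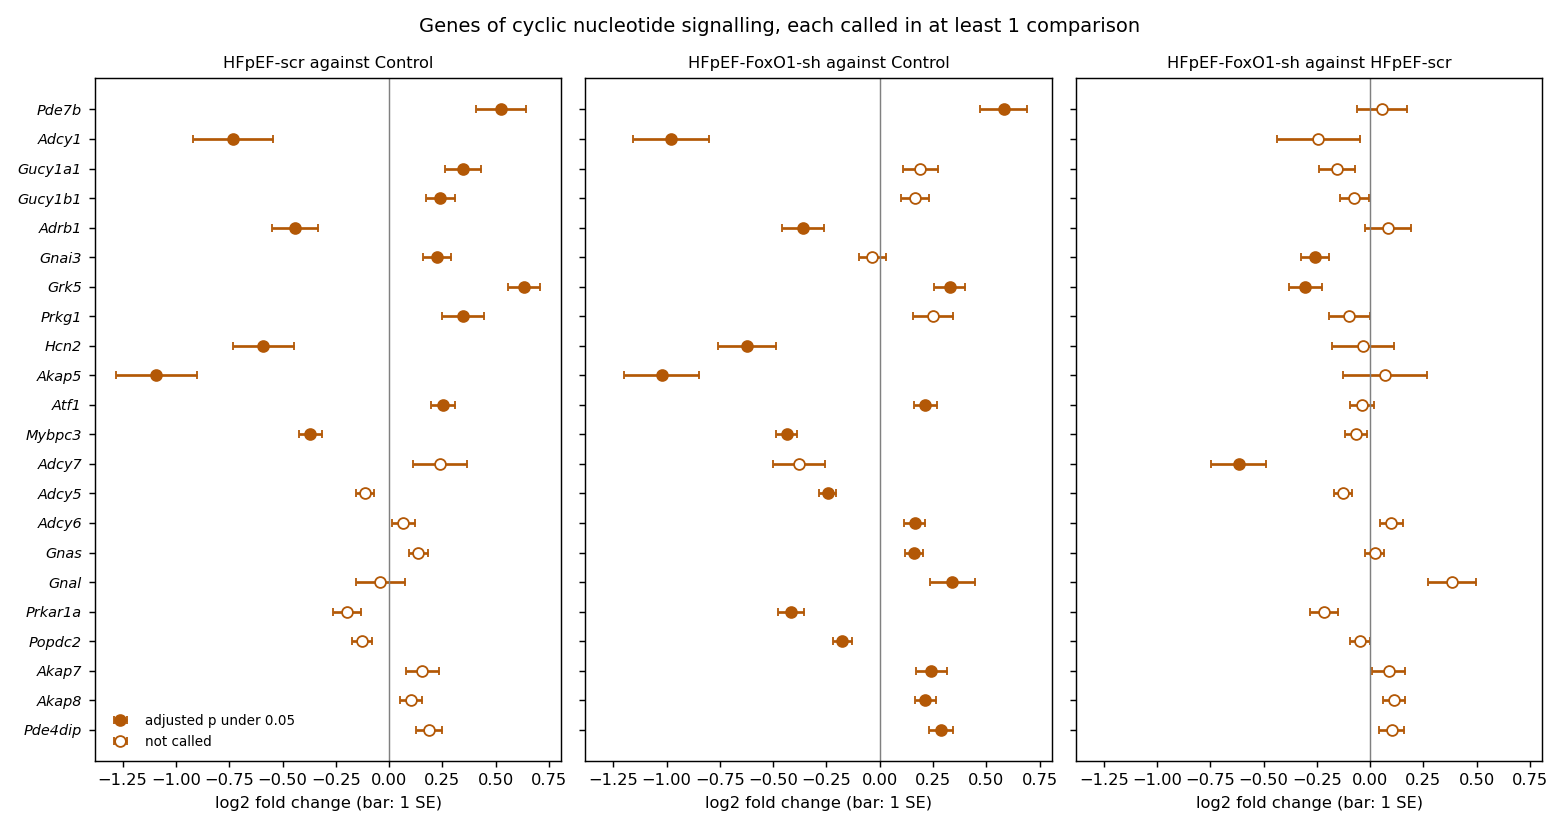
Log2 fold change (horizontal axis, bars of 1 SE) of 22 of the 24 genes of cyclic nucleotide signalling called in at least 1 of the 3 comparisons, with filled points where the adjusted p was under 0.05. Akap5 and Adcy1 lie farthest to the left in both comparisons with Control, and Grk5 and Pde7b lie to the right.

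Of 7 tested PDE genes outside the set, Pde7b, the other PDE7 gene, rose against Control. It averaged 49.8 ± 5.30 CPM in HFpEF-FoxO1-sh, 47.9 ± 4.39 CPM in HFpEF-scr and 33.3 ± 6.76 CPM in Control, where Control 4 at 44.8 CPM overlapped both HFpEF groups. It rose by 0.58 ± 0.11 on the log2 scale in HFpEF-FoxO1-sh against Control (adjusted p = 0.00305) and 0.53 ± 0.12 in HFpEF-scr against Control (adjusted p = 0.0151). Without HFpEF-scr 1 and 2 together, the call in HFpEF-scr against Control was lost, at an adjusted p of 0.0897. Pde7a and Pde7b did not follow each other from library to library, with an r of -0.12 over 14 libraries after group means were taken off. No gene of this list passed between the HFpEF groups, by edgeR or DESeq2, where 2 of 7 had a lower value at an unadjusted p under 0.05. The smallest p there was that of Pde8a, a cAMP-specific enzyme, at -0.24 ± 0.10 (adjusted p = 0.181).

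Among 8 adenylyl cyclases, the enzymes that make cAMP, Adcy1, which is stimulated by calmodulin, fell against Control. It averaged 9.30 ± 1.74 CPM in HFpEF-FoxO1-sh, 11.0 ± 3.92 CPM in HFpEF-scr and 18.3 ± 2.28 CPM in Control, with no overlap with Control. Adcy1 had a log2 fold change of -0.98 ± 0.18 (adjusted p = 0.0021) in HFpEF-FoxO1-sh against Control and -0.73 ± 0.19 (adjusted p = 0.0277) in HFpEF-scr against Control. The call in HFpEF-scr against Control was lost without Control 3, Control 4 or HFpEF-scr 4, and at an adjusted p of 0.126 without HFpEF-scr 1 and 2 together. The main cyclases of heart muscle moved apart in HFpEF-FoxO1-sh against Control, where Adcy5 fell by 0.24 ± 0.04 on the log2 scale (adjusted p = 0.000954) and Adcy6 rose by 0.16 ± 0.05 (adjusted p = 0.0437). Adcy6 kept its call in 1 of 10 refits without a library, that without HFpEF-FoxO1-sh 1. In HFpEF-scr against Control, Adcy5 had -0.115 ± 0.043 (adjusted p = 0.113) and Adcy6 0.07 ± 0.05 (adjusted p = 0.501). Adcy7, a cyclase of blood and immune cells, fell in HFpEF-FoxO1-sh against HFpEF-scr, to 11.7 ± 1.27 CPM in HFpEF-FoxO1-sh, against 17.9 ± 3.84 CPM in HFpEF-scr (log2 fold change -0.62 ± 0.13, adjusted p = 0.0186, and 0.0508 without HFpEF-scr 3). Macrophage markers were also lower in that comparison, summing to 157.6 to 200 CPM in HFpEF-FoxO1-sh and 209.8 to 264.7 CPM in HFpEF-scr, with 2 of 9 called down. In HFpEF-scr against Control the signs differed. Adcy7 had 0.24 ± 0.13 there (adjusted p = 0.267), and the macrophage markers had a median log2 fold change of -0.18, with 1 of 9 above 0. The part of these markers in Adcy7 was not tested.

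Of 6 genes of the guanylyl cyclase list, Gucy1a1 and Gucy1b1, the subunits of the cyclase that nitric oxide activates, rose in HFpEF-scr against Control. Gucy1a1 averaged 33.4 ± 4.15 CPM in HFpEF-scr and 26.3 ± 2.78 CPM in Control (log2 fold change 0.35 ± 0.09, adjusted p = 0.0234), and Gucy1b1 27.9 ± 2.26 CPM in HFpEF-scr and 23.7 ± 1.43 CPM in Control (0.24 ± 0.07, adjusted p = 0.0458). The groups overlapped for both. Gucy1a1 lost its call without Control 3, HFpEF-scr 2 or HFpEF-scr 4, and Gucy1b1 kept its call only without Control 2 or HFpEF-scr 1, among 9 refits without a library. Without HFpEF-scr 1 and 2 together, Gucy1b1 had an adjusted p of 0.0956. In HFpEF-FoxO1-sh against Control no gene of the list passed in edgeR or DESeq2, with 2 at an unadjusted p under 0.05, and Gucy1b1 had 0.17 ± 0.07 (adjusted p = 0.11). Between the HFpEF groups the count was 0 by both tools, with 0 at an unadjusted p under 0.05, and Gucy1a1 had -0.16 ± 0.09 (adjusted p = 0.329).

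Of 11 receptors and G proteins upstream of cAMP, Grk5, a kinase that turns off agonist-bound receptors, was called in all 3 comparisons. It averaged 43.6 ± 3.26 CPM in HFpEF-FoxO1-sh, 53.8 ± 5.62 CPM in HFpEF-scr and 34.7 ± 2.83 CPM in Control, with no overlap between any of the groups. It rose by 0.33 ± 0.07 on the log2 scale in HFpEF-FoxO1-sh against Control (adjusted p = 0.00742). The rise in HFpEF-scr over Control was 0.63 ± 0.08 (adjusted p = 0.000134). It was lower in HFpEF-FoxO1-sh than in HFpEF-scr by a log2 fold change of -0.30 ± 0.08 (adjusted p = 0.038), a call kept only without HFpEF-scr 4 or HFpEF-FoxO1-sh 5 among 9 refits, and at an adjusted p of 0.27 without HFpEF-scr 1 and 2 together.

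Adrb1, the main beta-adrenergic receptor of heart muscle, fell against Control. It averaged 26.0 ± 3.26 CPM in HFpEF-FoxO1-sh, 24.5 ± 4.03 CPM in HFpEF-scr and 33.3 ± 2.18 CPM in Control, with no overlap with Control. In log2 terms it differed by -0.36 ± 0.10 in HFpEF-FoxO1-sh against Control (adjusted p = 0.0257, lost without Control 1, HFpEF-FoxO1-sh 3 or HFpEF-FoxO1-sh 5) and -0.44 ± 0.11 in HFpEF-scr against Control (adjusted p = 0.0211, lost without HFpEF-scr 2 or HFpEF-scr 4, and 0.0688 without HFpEF-scr 1 and 2 together). Gnai3, an inhibitory G protein subunit, averaged 26.6 ± 1.88 CPM in HFpEF-FoxO1-sh, 31.8 ± 2.56 CPM in HFpEF-scr and 27.2 ± 1.23 CPM in Control. It rose in HFpEF-scr against Control by 0.23 ± 0.07 on the log2 scale (adjusted p = 0.047), kept only without HFpEF-scr 2 among 9 refits. It fell in HFpEF-FoxO1-sh against HFpEF-scr, with -0.26 ± 0.07 (adjusted p = 0.0402), kept only without HFpEF-scr 2 or HFpEF-FoxO1-sh 5 among 9 refits. Without HFpEF-scr 1 and 2 together, the adjusted p of Gnai3 was 0.0547 in HFpEF-scr against Control and 0.086 in HFpEF-FoxO1-sh against HFpEF-scr.

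The stimulatory subunits Gnas and Gnal rose in HFpEF-FoxO1-sh against Control. Gnas did so by 0.16 ± 0.04 on the log2 scale (adjusted p = 0.0204), lost without Control 2, Control 3 or HFpEF-FoxO1-sh 4. Gnal did so by 0.34 ± 0.11 (adjusted p = 0.0421), kept only without Control 2, Control 4 or HFpEF-FoxO1-sh 2 among 10 refits. In HFpEF-scr against Control, Gnas had 0.14 ± 0.04 (adjusted p = 0.0693) and Gnal -0.04 ± 0.11 (adjusted p = 0.865). Between the HFpEF groups, Gnas had 0.02 ± 0.04 (adjusted p = 0.839) and Gnal 0.38 ± 0.11 (adjusted p = 0.0684).

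None of 9 protein kinase A subunits and inhibitors passed in HFpEF-scr against Control, where DESeq2 called 1 and 4 had an unadjusted p under 0.05. Nor did any pass in HFpEF-FoxO1-sh against HFpEF-scr, where DESeq2 called 1 and 1 had an unadjusted p under 0.05. Prkar1a, the regulatory subunit that holds the kinase inactive, had the smallest p in both and fell in HFpEF-FoxO1-sh against Control. It averaged 552 ± 23.8 CPM in HFpEF-FoxO1-sh, 642 ± 61.8 CPM in HFpEF-scr and 736 ± 57.3 CPM in Control. The log2 fold change was -0.41 ± 0.06 in HFpEF-FoxO1-sh against Control (adjusted p = 0.000441), and all HFpEF-FoxO1-sh libraries lay below both other groups. It was -0.20 ± 0.07 in HFpEF-scr against Control (adjusted p = 0.0769, passing without Control 4 or HFpEF-scr 1) and -0.22 ± 0.07 in HFpEF-FoxO1-sh against HFpEF-scr (adjusted p = 0.0704, passing without HFpEF-scr 4).

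Of 10 other targets of cyclic nucleotides, Hcn2, a channel that opens on hyperpolarisation and binds cAMP, fell against Control. Hcn2 averaged 30.1 ± 1.87 CPM in HFpEF-FoxO1-sh, 30.7 ± 9.28 CPM in HFpEF-scr and 46.2 ± 5.16 CPM in Control. The log2 fold change was -0.62 ± 0.13 (adjusted p = 0.00646) in HFpEF-FoxO1-sh against Control and -0.59 ± 0.14 (adjusted p = 0.0218, lost without HFpEF-scr 2) in HFpEF-scr against Control, where the groups overlapped.

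Of 4 atrial muscle markers, the 2 with enough counts to be tested summed to 42.1 to 70.44 CPM in HFpEF-FoxO1-sh, 45.92 to 149.7 CPM in HFpEF-scr and 95.73 to 187.7 CPM in Control. That sum was nearly all Nppa, which encodes atrial natriuretic peptide and averaged 88.9 CPM over the libraries, against 1.87 CPM for Myl4. Myl7 had between 0 and 15 counts per library and Sln between 0 and 1, too few to be tested. Of the other 2 genes 1 was called down in HFpEF-FoxO1-sh against Control, the sole call of the list in the comparisons with Control, and its part in Hcn2 was not tested. Prkg1, protein kinase G, averaged 27.2 ± 3.46 CPM in HFpEF-scr and 21.5 ± 1.49 CPM in Control, a log2 fold change of 0.35 ± 0.10 (adjusted p = 0.0418), kept only without Control 4 or HFpEF-scr 1 among 9 refits. Pericyte and smooth muscle markers, cells rich in this kinase, summed to 1322 to 1423 CPM in HFpEF-scr and 1218 to 1375 CPM in Control, with 3 of 10 called up, and their part was not tested. Popdc2, a cAMP-binding membrane protein of heart muscle, fell in HFpEF-FoxO1-sh against Control by 0.18 ± 0.04 on the log2 scale (adjusted p = 0.0159). In HFpEF-scr against Control, Popdc2 had -0.13 ± 0.05 (adjusted p = 0.104). Between the HFpEF groups the count of calls in this list was 0 by edgeR and DESeq2, with 0 at an unadjusted p under 0.05, and the smallest p was that of Rapgef3, an exchange factor switched on by cAMP, at -0.14 ± 0.07 (adjusted p = 0.29).

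Of 11 anchoring proteins, which hold protein kinase A and PDEs in place, Akap5, an anchor at beta-adrenergic receptors and calcium channels, fell against Control. It averaged 9.73 ± 0.62 CPM in HFpEF-FoxO1-sh, 9.23 ± 3.66 CPM in HFpEF-scr and 19.8 ± 2.72 CPM in Control, with no overlap with Control. Akap5 had a log2 fold change of -1.02 ± 0.18 (adjusted p = 0.00139) in HFpEF-FoxO1-sh against Control and -1.09 ± 0.19 (adjusted p = 0.0032) in HFpEF-scr against Control. Pde4dip, the protein that binds PDE4D, rose in HFpEF-FoxO1-sh against Control, to 4084 ± 105 CPM in HFpEF-FoxO1-sh, against 3348 ± 69.2 CPM in Control (log2 fold change 0.29 ± 0.06, adjusted p = 0.0037), with no overlap. Akap8, a nuclear anchor, rose by 0.21 ± 0.05 on the log2 scale in that comparison (adjusted p = 0.00851). Akap7, the anchor that brings the kinase to phospholamban, rose there by 0.24 ± 0.07 (adjusted p = 0.038), kept only without Control 4, Control 5 or HFpEF-FoxO1-sh 4 among 10 refits. In HFpEF-scr against Control, Pde4dip had 0.19 ± 0.06 (adjusted p = 0.0673), Akap8 0.10 ± 0.05 (adjusted p = 0.231) and Akap7 0.15 ± 0.08 (adjusted p = 0.24). Between the HFpEF groups no anchoring gene passed in edgeR or DESeq2, with 2 at an unadjusted p under 0.05 in edgeR, and Akap12 had -0.47 ± 0.18 (adjusted p = 0.157).

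Of 6 genes of the CREB family, Atf1, a transcription factor that protein kinase A activates, rose against Control. It averaged 68.6 ± 3.71 CPM in HFpEF-FoxO1-sh, 70.4 ± 3.99 CPM in HFpEF-scr and 59.1 ± 3.79 CPM in Control. Its log2 fold change was 0.21 ± 0.05 (adjusted p = 0.0158) in HFpEF-FoxO1-sh against Control and 0.25 ± 0.06 (adjusted p = 0.0157, lost without HFpEF-scr 2, and 0.0998 without HFpEF-scr 1 and 2 together) in HFpEF-scr against Control. Between the HFpEF groups the count was 0 by edgeR and DESeq2, with 1 at an unadjusted p under 0.05, that of Crtc1, a CREB coactivator, at -0.16 ± 0.07 (adjusted p = 0.197).

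Of 8 muscle proteins that protein kinase A phosphorylates, Mybpc3, cardiac myosin-binding protein C, fell against Control, to 4791 ± 233 CPM in HFpEF-FoxO1-sh and 5018 ± 370 CPM in HFpEF-scr, against 6485 ± 345 CPM in Control. The log2 fold change was -0.44 ± 0.05 (adjusted p = 4.03e-05) and -0.37 ± 0.05 (adjusted p = 0.00071) in HFpEF-FoxO1-sh and in HFpEF-scr against Control, a fall known from earlier results of these data. Between the HFpEF groups edgeR called 0 of these genes, DESeq2 called 1, and 1 had an unadjusted p under 0.05, which was Tnni3, cardiac troponin I, at 0.14 ± 0.04 (adjusted p = 0.0754, passing without HFpEF-scr 4).

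Calm3, a calmodulin gene, whose product switches on the PDE1 enzymes, had a log2 fold change of 0.11 ± 0.04 in HFpEF-FoxO1-sh against Control (adjusted p = 0.0859). The falls of Adcy7, Gnai3 and Grk5 in HFpEF-FoxO1-sh against HFpEF-scr came with 3 of 10 fibroblast markers and 5 of 22 immediate early genes called down there, and the part of these in them was not tested.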

How the data were processed

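Left ventricular RNA was sequenced after poly(A) selection, per the labels' protocols. The authors deposited a table of expected counts per gene, and per the submitters' processing notes RSEM 1.2.15, Bowtie2 2.1.0 and the build mm10 (GRCm38) were used. The annotation used for counting, the read layout and whether counting used strand are not given in the sources used here. Of the deposited expected counts, 15.1% to 16.4% per library were not whole, since RSEM divides reads that fit several genes.

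Expected counts were rounded and tested with edgeR 4.0.16 (R 4.3.3): filterByExpr by group, TMM, and a quasi-likelihood fit of all 14 libraries with 1 coefficient per group. Calls are Benjamini-Hochberg adjusted p under 0.05 over 13588 genes. CPM are counts per 1000000 after TMM. Lengths and positions come from GENCODE vM21 on GRCm38. SEs follow from each log2 fold change divided by the square root of F. Likeness to Pde11a used log2 CPM with a prior count of 2.

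The members, the lists and the tests were chosen with earlier results of these data known. Named genes were all members, up to 4 called genes of each pathway list per comparison, or the gene with the smallest p where none was called, and the 5 genes most like Pde11a in each measure. Some genes that these rules name are not reported here, while counts over a list or over all genes include them. Gucy1a1 and Gucy1b1 stand in the table under older symbols. Alternatives were DESeq2 1.42.0, limma 3.58.1 with voom, DESeq2 size factors, other filters, a replicate block, fits of the compared groups alone, and leaving out libraries. The scripts were tested on simulated data. Depth covers counting error only, and no 2 libraries of the same group agreed within sampling noise. Python 3.11.15 and matplotlib 3.10.9 drew the figures.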

Additional observations from a re-analysis of the deposited data

Results flagged for a closer look

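Dixon's ratio, the gap between an extreme library and its neighbour over the range of its group, was examined for 30 groups of the 10 PDE genes, and 4 passed the 95% critical value, where chance flags about 1 in 20 groups. Pde3a stood at 83.32 CPM in HFpEF-FoxO1-sh 5, against 56.02 to 63.15 CPM in the other libraries of that group, a ratio of 0.739. Pde4b stood at 51.86 CPM in HFpEF-scr 1, against 41.45 to 42.7 CPM in the others, a ratio of 0.88. Pde4d stood at 67.2 CPM in the same library, against 53.57 to 55.69 CPM, a ratio of 0.844. That library also had the highest sum of red cell genes, 6024 CPM, against 538.3 to 1110 CPM in the rest of its group. Its sum of endothelial markers was the highest as well, 2244 CPM, against 1624 to 1792 CPM in the rest of its group. The part of either in the PDE4 values was not tested. Pde7a stood at 98.21 CPM in HFpEF-scr 4, against 57.63 to 58.32 CPM in the others, a ratio of 0.983.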

How the results depend on the processing

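The PDE set was chosen from fold changes of these same libraries, so the calls of its genes over settings are a description and no separate support. Pde11a and Pde1c kept their direction and their call against Control under every setting run, with log2 fold changes of 1.66 to 2.08 and -0.73 to -0.55 over 17 settings in HFpEF-scr against Control, and 1.57 to 1.85 and -0.83 to -0.74 over 18 settings in HFpEF-FoxO1-sh against Control. Pde7a was called in 18 of 18 settings in HFpEF-FoxO1-sh against Control, and in 3 of 17 in HFpEF-scr against Control, namely DESeq2, without HFpEF-scr 1, and without HFpEF-scr 1 and 2. Values that were not called crossed 0 for some genes, as for Pde11a between the HFpEF groups. In HFpEF-FoxO1-sh against HFpEF-scr, 486 genes were called, and 857 by DESeq2, 291 with the replicate block and 54 without HFpEF-scr 1 and 2. The 4 pathway genes there were 2 with the replicate block and 1 without HFpEF-scr 1 and 2. In HFpEF-scr against Control, 1001 genes and 14 pathway genes were called, against 504 and 6 in a fit of these groups alone and 560 and 8 without HFpEF-scr 1 and 2. These settings use other models or fewer libraries, and the cause was not tested further. Leaving out 1 library gave 537 to 1106 genes, 2 to 3 PDE genes of the set and 8 to 18 pathway genes in HFpEF-scr against Control, where 1001, 2 and 14 were reported. It gave 1228 to 1683, 3 to 4 and 14 to 19 in HFpEF-FoxO1-sh against Control, where 1760, 3 and 18 were reported, and 162 to 668, 0 to 1 and 0 to 5 in HFpEF-FoxO1-sh against HFpEF-scr, where 486, 0 and 4 were reported. The low ends were without Control 3, Control 2 and HFpEF-FoxO1-sh 1 for all genes. Same-numbered libraries did not deviate together, with correlations from -0.19 to 0.11 over 13588 genes, so the numbers were not taken as pairs, and under the replicate block the called PDE genes numbered 2, 3 and 0 in HFpEF-scr against Control, HFpEF-FoxO1-sh against Control and HFpEF-FoxO1-sh against HFpEF-scr, as without it. Over all settings, the pathway genes that the naming rule takes gave 668 values on the same side of the threshold, 125 that lost the call, 7 that gained it and none that turned direction. Levels per kb moved by more than 1 SD in 24 cases, all with the longest transcript as length. Depth limits Pde11a, with as few as 12 counts in a Control library.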
